A study of Mus musculus with 8 samples.

Results

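The naive pluripotency factors examined here are 9 genes, Klf2, Klf4, Klf5, Esrrb, Tfcp2l1, Zfp42, Dppa5a, Tbx3 and Dppa3, whose rows were taken by their GENCODE symbols from 2 single-cell count tables that hold 54146 genes each. All 9 were found in both tables. They were measured in E14 wild-type mouse embryonic stem (ES) cells grown on gelatin with mouse embryonic fibroblast (MEF) feeder cells in LIF/2i medium for 2 days, either untreated (control) or treated with CX-5461, an inhibitor of RNA polymerase I, the enzyme that makes ribosomal RNA. The labels name 4 samples for each condition, but all barcodes of a condition stand in 1 table without a sample of origin and the study describes 1 experiment, so that each condition is 1 library and no test between conditions could be made. The dose and time of CX-5461 for these libraries are not given in the sources used here.

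Naive pluripotency is the state of the early epiblast, which ES cells keep in culture when LIF activates STAT3 and the inhibitors of the 2i medium block MEK and GSK3. A network of transcription factors holds this state in place. Klf4 is a target of LIF and STAT3, Tfcp2l1, Esrrb and Klf2 are linked to the GSK3 and MEK branches, and Zfp42 (also called Rex1), Dppa5a and Dppa3 (also called Stella) are widely used as markers of the naive state.

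There were 3838 barcodes for the control and 4922 for CX-5461. Cells with at least 5000 UMIs (unique molecular identifiers, 1 per captured RNA molecule) and a share of at most 0.1 on mitochondrial genes were kept, which left 2646 control and 4174 CX-5461-treated cells. Of these, 2469 control and 4017 treated cells had less than 0.1% of their UMIs on 10 fibroblast markers and are called ES cells, while 177 and 157 lay above that limit and are called fibroblasts. A median of 0.160% of the UMIs of ES cells in the control and 0.147% in the treated library lay on 9 ES cell markers, none of them among the naive factors, against 0.00489% and 0% in fibroblasts. Only 9 control and 8 treated ES cells had no UMI of those markers. Each cell was then thinned at random to 5000 UMIs, so that depth was equal, and levels are UMIs of a gene scaled to the same total (CPM) over the ES cells of a library, with 95% exact intervals that cover counting error only. ES cells of the libraries had median depths of 15672 and 14689 UMIs before thinning.

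All scaling here is relative to the UMIs of a cell, and the libraries differed in their make-up. Ribosomal protein genes took a median of 28.4% of the UMIs of control and 23.7% of treated ES cells, and mitochondrial genes took 1.92% and 4.01%. Targets of p53 stood at 3051 CPM in control and 5417 CPM in treated ES cells. The median log2 ratio of CX-5461 over control for the 10467 genes with at least 100 thinned UMIs was 0.33, so that a gene at a log2 ratio of 0 lay below the typical gene. All 9 naive factors passed that filter. The part of these differences in the values below was not tested.

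After CX-5461 treatment the naive factors did not move as a block. Zfp42 was lower at 0.528 of its control level, Tfcp2l1 was slightly lower, the 3 Klf genes and Dppa3 were higher, Dppa5a was slightly higher, and for Esrrb and Tbx3 the interval of the ratio included no difference. In all, 6 of the 9 were higher and 3 lower in the treated library, beside 70.5% of all genes tested that were higher. At least 1.5-fold higher was 1 of the 9, Klf4, against 34.8% of all genes tested, and at least 1.5-fold lower was 1 of the 9, Zfp42, against 8.22%. The median log2 ratio over the 9 was 0.22, below the 0.33 of all genes, and 4 of the 9 lay above the median gene. Relative to the median gene none was at least 1.5-fold higher, against 21.5% of all genes, and Zfp42 was the 1 factor at least 1.5-fold lower, against 17.3%.

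**Figure D1:**
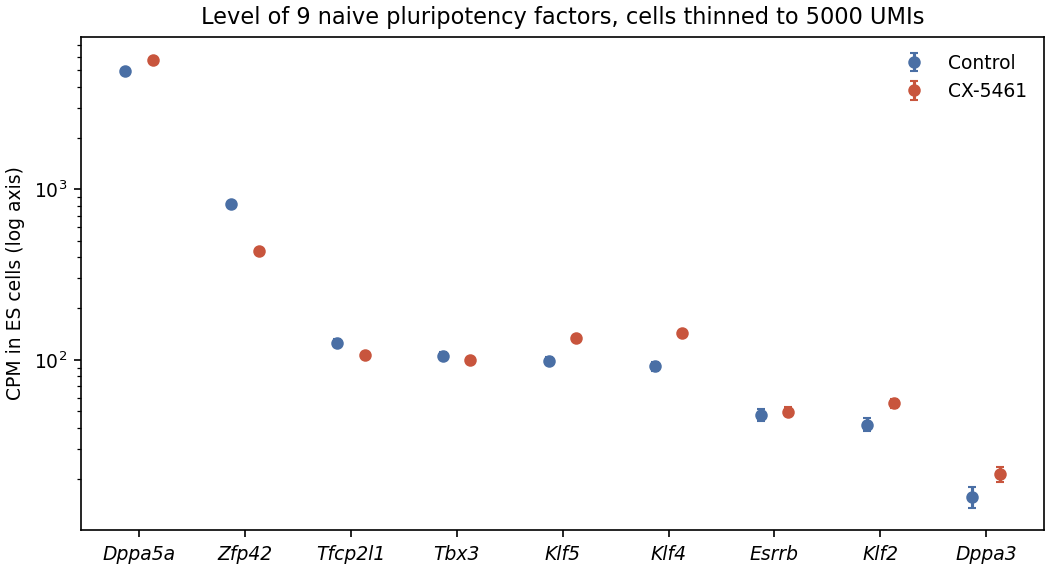
Level of each naive factor in control (blue) and CX-5461-treated (red) ES cells, as CPM on a log axis after thinning each cell to 5000 UMIs, with 95% exact Poisson intervals. The levels run from 15.7 CPM for Dppa3 to 4947 CPM for Dppa5a in the control, and the widest gap between the libraries is at Zfp42.

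For 5 of the 9 factors a promoter window of RefSeq was at hand (GRCm38.p6, 250 bases before to 50 after the gene start, read along the gene's strand). The windows of Zfp42 and Tfcp2l1, which were lower, and of Klf2 and Klf4, which were higher, are printed to show the DNA around their starts. Capitals mark matches on either strand to the octamer ATTTGCAT, bound by POU factors such as Pou5f1, or to the KLF-type motif CCNCNCCC. The window of Zfp42 is chr8:43306960-43307259 (minus strand), that of Tfcp2l1 chr1:118627695-118627994 (plus strand), that of Klf2 chr8:72318812-72319111 (plus strand) and that of Klf4 chr4:55532426-55532725 (minus strand).
Zfp42: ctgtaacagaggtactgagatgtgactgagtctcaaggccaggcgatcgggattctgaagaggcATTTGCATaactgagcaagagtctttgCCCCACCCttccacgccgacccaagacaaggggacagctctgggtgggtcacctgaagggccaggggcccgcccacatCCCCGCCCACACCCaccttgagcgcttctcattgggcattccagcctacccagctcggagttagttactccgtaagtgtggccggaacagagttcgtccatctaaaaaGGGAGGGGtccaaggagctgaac
Tfcp2l1: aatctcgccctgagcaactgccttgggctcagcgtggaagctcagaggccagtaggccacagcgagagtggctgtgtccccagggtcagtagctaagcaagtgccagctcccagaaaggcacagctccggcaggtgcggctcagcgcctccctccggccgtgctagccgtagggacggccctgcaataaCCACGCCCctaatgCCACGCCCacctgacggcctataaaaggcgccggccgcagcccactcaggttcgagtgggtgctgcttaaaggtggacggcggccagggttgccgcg
Klf2: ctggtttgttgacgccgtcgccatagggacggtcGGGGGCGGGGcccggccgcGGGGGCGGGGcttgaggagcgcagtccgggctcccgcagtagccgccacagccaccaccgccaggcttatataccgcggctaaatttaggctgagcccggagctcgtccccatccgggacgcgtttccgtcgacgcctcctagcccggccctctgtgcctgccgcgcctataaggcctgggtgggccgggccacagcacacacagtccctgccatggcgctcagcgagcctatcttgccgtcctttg
Klf4: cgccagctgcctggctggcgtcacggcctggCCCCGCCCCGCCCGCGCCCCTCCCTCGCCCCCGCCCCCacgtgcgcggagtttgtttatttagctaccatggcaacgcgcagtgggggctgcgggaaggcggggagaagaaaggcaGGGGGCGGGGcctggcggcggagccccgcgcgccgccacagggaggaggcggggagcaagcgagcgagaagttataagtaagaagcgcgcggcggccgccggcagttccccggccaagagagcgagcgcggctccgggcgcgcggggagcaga
Zfp42 held 1 octamer and 4 KLF-type matches, Tfcp2l1 2, Klf2 4 and Klf4 9 KLF-type matches and no octamer, where overlapping matches of the KLF-type motif were counted at each start and no octamer overlapped one of them. Over all 32851 promoter windows of the same table, 1.74% held the octamer and 49.5% the KLF-type motif. The ESRRB-type motif TCAAGGTCA was in none of the 4 windows and in 0.423% of all. A match is a string of letters and says nothing of binding in these cells.

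Zfp42, a zinc finger protein whose loss marks exit from the naive state, had the largest difference among the 9. Its gene (ENSMUSG00000051176.6) lies on chromosome 8 from 43295063 to 43306980 on the minus strand of GRCm38. Its level was 825 CPM (809 to 841) in control and 436 CPM (427 to 445) in CX-5461-treated ES cells, a ratio of 0.528 (0.513 to 0.543) and a log2 ratio of -0.92 (-0.96 to -0.88). Only 4.04% of the genes tested had a lower ratio. The whole distribution lay lower in treated cells. The median ES cell held 4 of 5000 UMIs of Zfp42 in the control and 2 in the treated library, and the 5% of cells with the most held at least 9 and 5 UMIs. A UMI of Zfp42 was seen in 95.9% (95.1 to 96.7) of control and 82.7% (81.5 to 83.9) of treated cells, against 7.91% and 5.10% in fibroblasts, whose median depths before thinning were 22506 and 24133 UMIs. At least 5 UMIs were found in 39.6% of control and 10.5% of treated cells. The variance over the mean, the Fano factor, which is 1 for pure counting noise, was 1.55 in the control and 1.39 in the treated library, and the squared variation beyond counting noise was 0.134 and 0.178. Intervals that take UMIs as independent counts are too narrow where the Fano factor is above 1, as it is here. The share of cells with no UMI was larger than a Poisson distribution of the same mean gives in both libraries, which would put 98.4% and 88.7% of the cells above 0.

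**Figure D2:**
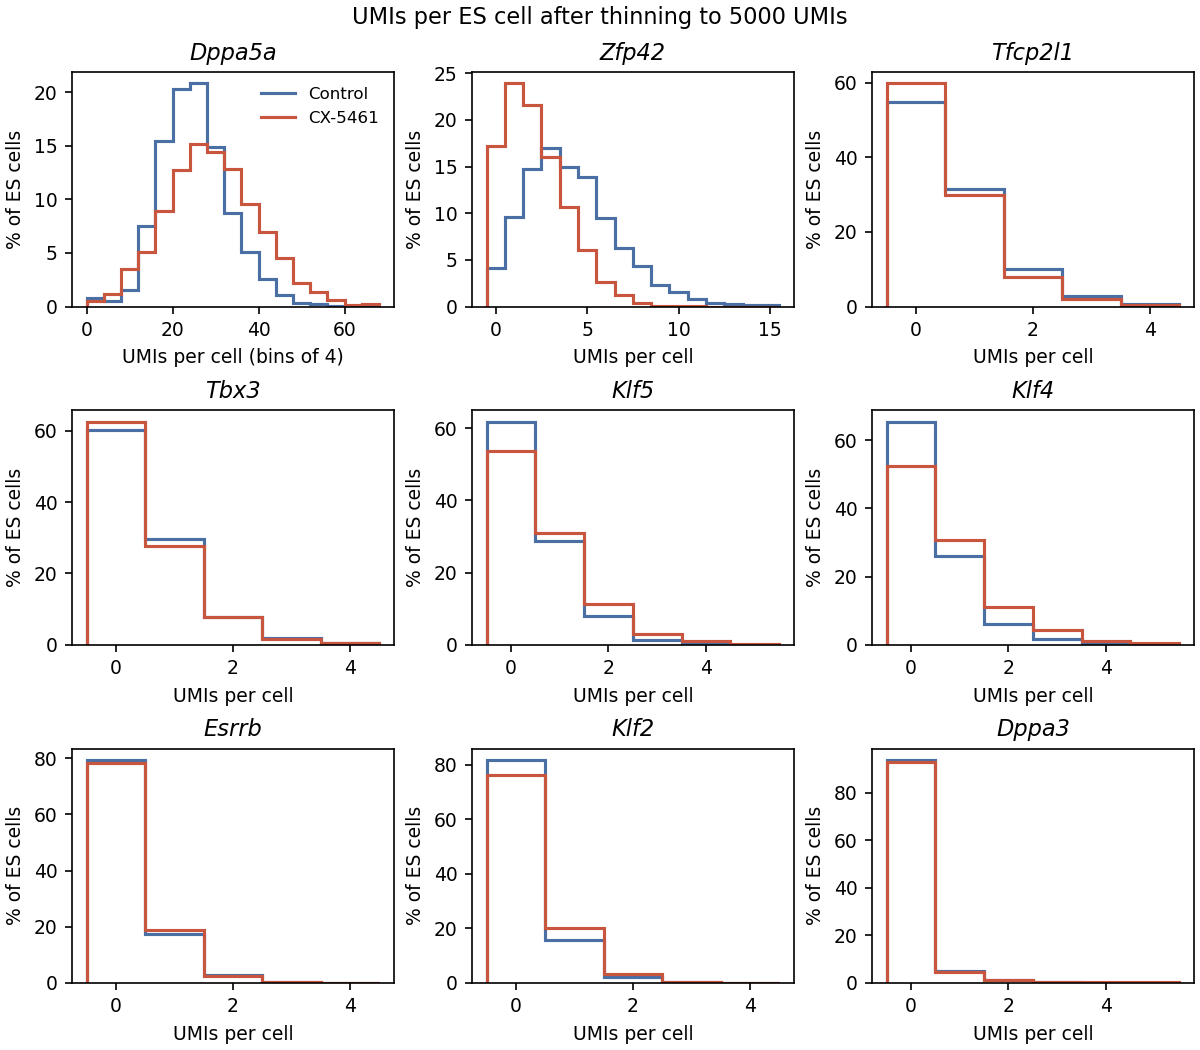
Share of ES cells (%) by the number of UMIs of each naive factor after thinning to 5000 UMIs per cell, in control (blue) and CX-5461-treated cells (red), with Dppa5a in bins of 4 UMIs and the last bin of each panel holding all higher counts. The Zfp42 curve of the treated cells lies to the left of the control curve, that of Dppa5a is wider, and the bars at 0 of Klf4, Klf5 and Klf2 are lower in treated cells.

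The 3 Krüppel-like factors, zinc finger transcription factors that bind many of the same sites and can replace each other in part in ES cells, were all higher in treated cells. Klf4 (ENSMUSG00000003032.8, chromosome 4, 55527143 to 55532466, minus strand) stood at 91.5 CPM (86.2 to 96.9) in the control and 144 CPM (138 to 149) after treatment, a log2 ratio of 0.65 (0.55 to 0.75). Klf5 (ENSMUSG00000005148.8, chromosome 14, 99298691 to 99315036, plus strand) stood at 98.5 CPM (93.0 to 104) and 134 CPM (129 to 140), a log2 ratio of 0.45 (0.35 to 0.55). Klf2 (ENSMUSG00000055148.7, chromosome 8, 72319033 to 72321656, plus strand) stood at 41.6 CPM (38.0 to 45.3) and 55.7 CPM (52.5 to 59.1), a log2 ratio of 0.42 (0.27 to 0.58). The ratio of Klf4 was 1.57 (1.46 to 1.68), so that its interval includes the 1.5-fold used for calls.

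In single cells these genes were near the limit of detection. The share of ES cells with a UMI was 34.5% in control and 47.5% in treated cells for Klf4, 38.2% and 46.3% for Klf5, and 18.1% and 23.8% for Klf2. Fibroblasts do not serve as a background for Klf4, which they express themselves, with a UMI in 49.2% of control and 51.0% of treated fibroblasts and levels of 146 CPM (122 to 173) and 177 CPM (149 to 209), above those of the ES cells of the same library. For Klf5 and Klf2 the share in fibroblasts was 5.08% and 6.21% in the control and 0.637% and 6.37% in the treated library. Relative to the median gene the log2 ratios of Klf4, Klf5 and Klf2 were 0.32, 0.12 and 0.10, so that Klf5 and Klf2 lay close to the typical gene.

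Tfcp2l1 and Esrrb, transcription factors downstream of the GSK3 inhibitor in this network, were lower or little different. Tfcp2l1 (ENSMUSG00000026380.10, chromosome 1, 118627945 to 118685168, plus strand) stood at 126 CPM (120 to 132) in the control and 106 CPM (102 to 111) after treatment, a log2 ratio of -0.24 (-0.34 to -0.15), and 45.0% and 40.2% of ES cells had a UMI. Esrrb, a nuclear receptor (ENSMUSG00000021255.17, chromosome 12, 86361117 to 86521628, plus strand), stood at 47.7 CPM (43.9 to 51.7) and 49.6 CPM (46.6 to 52.8), a log2 ratio of 0.056 (-0.093 to 0.21), and 20.5% and 21.6% of cells had a UMI. Fibroblasts with a UMI of either gene made up at most 3.95%. Relative to the median gene their log2 ratios were -0.57 and -0.27. An exon of Tfcp2l1 overlaps Gm23497 on the same strand, and the deposited tables mark no count of any of the 9 factors as shared with another gene.

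Tbx3, a T-box transcription factor of the naive network, also showed little difference in CPM. Its gene (ENSMUSG00000018604.18, chromosome 5, 119670669 to 119684724, plus strand) overlaps the antisense gene Tbx3os1. Its level was 105 CPM (99.7 to 111) in control and 99.6 CPM (95.3 to 104) in treated ES cells, a log2 ratio of -0.081 (-0.18 to 0.021). Relative to the median gene its log2 ratio was -0.41, and 25.1% of the genes tested had a lower ratio. A UMI was found in 39.7% (37.8 to 41.7) of control and 37.4% (35.9 to 39.0) of treated cells, against 5.08% and 5.73% of fibroblasts.

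Dppa5a, an RNA-binding protein of pluripotent cells, gave most UMIs of the 9, at 78.5% of their sum in control and 84.6% in treated cells. Its gene (ENSMUSG00000060461.5) lies on chromosome 9 from 78367052 to 78368177 on the minus strand. Its level was 4947 CPM (4908 to 4986) in the control and 5757 CPM (5724 to 5790) after treatment, a log2 ratio of 0.22 (0.20 to 0.23), which is -0.11 relative to the median gene. Nearly every ES cell held it, with a UMI in 99.6% of control and nearly 100% of treated cells. The spread between cells was wider after treatment. The median was 24 UMIs in control and 28 in treated cells, the lowest 5% of cells lay at or below 13 and 11 UMIs, and the highest 5% at or above 39 and 47. The Fano factor was 2.68 and 4.06, so that the intervals of its level and ratio, which take UMIs as independent counts, are too narrow. A UMI of Dppa5a was also found in 57.1% of control and 47.1% of treated fibroblasts, at 241 and 204 CPM, levels far under those of the ES cells. Because of Dppa5a the 9 factors summed to 6298 CPM in control and 6803 CPM in treated cells, whereas without it they summed to 1351 and 1046 CPM.

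Dppa3, a maternal factor that protects DNA methylation in the early embryo and is expressed by a minority of ES cells, had the fewest UMIs of the 9. Its gene (ENSMUSG00000046323.8) lies on chromosome 6 from 122626410 to 122630272 on the plus strand. Its level was 15.7 CPM (13.6 to 18.1) in control and 21.3 CPM (19.3 to 23.4) in treated ES cells, a log2 ratio of 0.44 (0.19 to 0.69). Relative to the median gene its log2 ratio was 0.11. The 5% of cells with the most UMIs of Dppa3 held 86.1% of them in control and 82.9% in treated cells, shares that are high largely because few cells held any. Its Fano factor was 1.61 and 2.43, so that the intervals of its level and ratio, which take UMIs as independent counts, are too narrow. The share of cells with a UMI differed by less than its counting error, 6.08% (5.17 to 7.09) in control and 6.82% (6.06 to 7.64) in treated cells, whereas the mean in cells with a UMI was 1.29 and 1.56 UMIs and the highest cell held 7 and 13. Among control fibroblasts 1.13% had a UMI, and 0 of 157 treated fibroblasts did, which allows a share of up to 1.91% as 3 counts of 157 and up to 2.32% by the exact interval. Its squared variation beyond counting noise was 7.80 in control and 13.4 in treated cells, beside a median of 0.108 and 0.114 over all genes with at least 0.1 UMIs per cell, a floor that Dppa3 itself passed in the treated library alone.

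The number of the 9 factors with a UMI in a cell was close between the libraries. The mean was 3.98 in control and 4.06 in treated cells and the median 4 in both. At most 2 factors were found in 10.4% of control and 12.0% of treated cells, and at least 6 in 11.7% and 14.8%. The share of cells with 1 factor was 0.729% in control and 2.24% in treated cells, and that of cells with none was 0.243% and 0.0249%, which is 6 and 1 cells.

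The wider network was described with lists of genes, beside 34.8% of all genes tested that were at least 1.5-fold higher and 8.22% that were at least 1.5-fold lower. Of 4 core factors, Sall4 was lower, at 97.2 CPM in control and 34.2 CPM in treated cells, a ratio of 0.351 (0.319 to 0.386), while the ratios of Pou5f1, Sox2 and Nanog were 0.803, 1.49 and 1.17. Of 14 other genes of the naive state, 3 were at least 1.5-fold higher, a smaller share than the 34.8% of all genes, which were Prdm14 (ratio 1.95), a repressor of FGF signalling, Dppa4 (1.59) and Jam2 (1.81), and 1 was at least 1.5-fold lower, Tet2 (0.515), an enzyme that oxidises methylated cytosine. Their median log2 ratio was -0.012. Of 7 genes of LIF and STAT3 signalling only Il6st, a part of the LIF receptor, passed 1.5-fold, with a ratio of 1.65 (1.29 to 2.14), and Socs3 and Pim1, targets of STAT3, stood at ratios of 1.01 and 0.996. Of 4 tested genes of the WNT branch Sp5, a target of beta-catenin, had a ratio of 2.60 (2.13 to 3.18). Of 7 tested genes of the FGF and ERK branch 3 were at least 1.5-fold lower, against 8.22% of all genes, the ERK targets Spry2 (ratio 0.460), Etv4 (0.560) and Dusp6 (from 6.08 to 3.04 CPM), and the median log2 ratio of this list was -0.37. The ERK targets Etv5 and Egr1 had ratios of 0.823 and 1.01. Of 8 formative and primed genes only 2 passed the filter on low counts, Dnmt3b with a ratio of 1.02 and T with 1.84 (1.29 to 2.68), and T stood at 3.40 CPM in control and 6.27 CPM in treated cells.

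**Figure D3:**
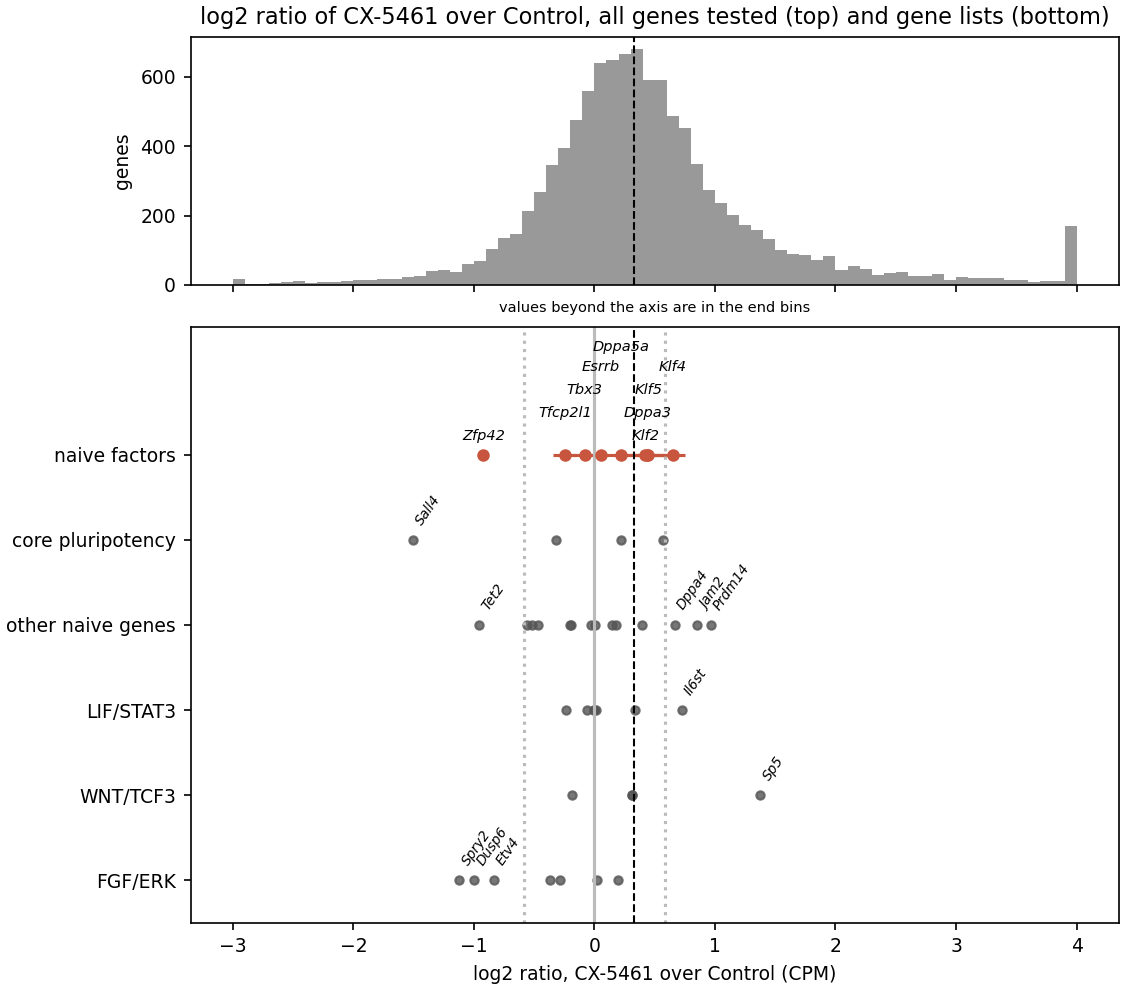
The log2 ratio of CX-5461 over control in ES cells for all 10467 genes tested (top, number of genes per bin of 0.1) and for the 9 naive factors and other gene lists (bottom, 1 point per gene, red bars 95% intervals). The dashed line is the median of all genes at 0.33, the dotted lines are 1.5-fold in either direction, and Zfp42 and Klf4 are the naive factors outside them.

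Within each library the r values between naive factors across cells were small but lay more often at the upper end than those of all gene pairs. Pearson's r of log2(1 + thinned UMIs) was computed for the 36 pairs across the ES cells, which share a library and are not replicates. The median r was 0.021 in the control and 0.029 in the treated library, and 28 and 31 of the 36 pairs lay above 0. Over all pairs among 3874 genes with at least 0.1 UMIs per cell in both libraries the median was 0.0013 and 0.00088, and 90% of the pairs lay between -0.036 and 0.040 in the control and between -0.030 and 0.033 in the treated library. Above the upper of these bounds, which 5% of all pairs exceed, lay 13 of the 36 pairs of naive factors in the control and 15 in the treated library. Dppa3, at a mean of 0.079 UMIs per cell in the control, lay below the floor of 0.1 set for the other genes. The highest value in the control was 0.125 for Zfp42 and Dppa5a, the pair with the most UMIs, which had 0.070 in the treated library. Of the 9 control ES cells without a UMI of Dppa5a, 11.1% held one of Zfp42, against 96.2% of the others. The part of those cells in this r was not tested. In treated cells the highest r was 0.092 for Zfp42 and Tbx3, with 0.091 in the control. Klf2 and Zfp42 had 0.017 in the control and 0.086 in treated cells. The lowest r was -0.034 in the control, for Tfcp2l1 and Dppa3, and -0.035 in treated cells, for Klf5 and Dppa5a. Few UMIs per cell lower r, so that these values describe the counts and were not tested.

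**Figure D4:**
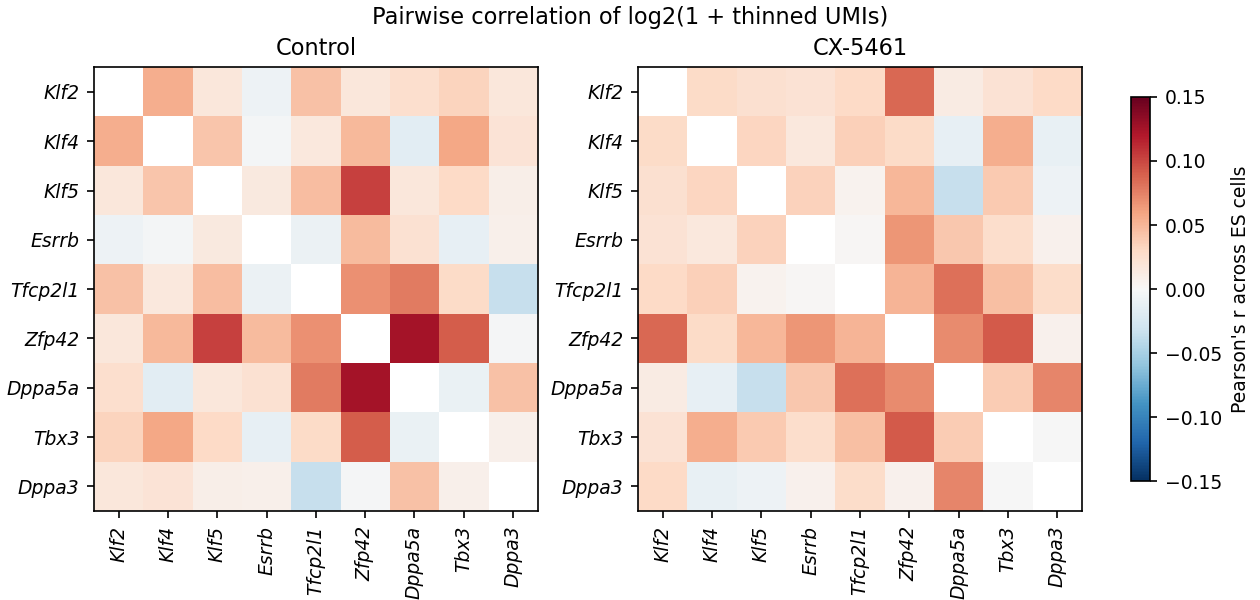
Pearson's r of log2(1 + thinned UMIs) across ES cells for each pair of naive factors, in the control (left) and CX-5461 library (right), on a colour scale from -0.15 to 0.15. The darkest squares are in the row of Zfp42, with 0.125 for Zfp42 and Dppa5a in the control.

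Clusters of cells made without the 9 factors differed in the level of several of them in both libraries. Most treated ES cells fell in a pair of large clusters of 1825 and 1708 cells, which held 1 and 0 control cells. The large control clusters in turn held no treated cell. A smaller cluster of 353 treated ES cells, led by Rgs14 and Krt15, likewise held no control cell. Its Zfp42 level was 200.0 CPM (180 to 222), against 491 CPM (477 to 506) and 426 CPM (413 to 440) in the large clusters, and 52.1% (46.8 to 57.4) of its cells had a UMI of Zfp42 against 89.2% and 82.9%. Tbx3 stood at 44.8 CPM (35.4 to 55.8) against 104 and 107, Tfcp2l1 at 54.4 CPM (44.1 to 66.4), with a UMI in 24.1% of cells against 45.4% and 38.3%, and Esrrb at 29.5 CPM (22.0 to 38.6) against 55.1 and 48.0. Klf2, Dppa5a and Dppa3 were lower there as well, so that the intervals of 7 of the 9 factors lay below those of both large clusters. The exceptions were Klf4, at 144 CPM (127 to 163) against 137 and 152, and Klf5, at 128 CPM (112 to 146) against 137 and 134. This cluster also differed in other measures. The median share of UMIs on ES cell markers was 0.0734% against 0.168% and 0.137%, and that on p53 targets 0.705% against 0.488% and 0.557%. Clusters are made from genes that vary with the factors, so that these levels are a description. Within the large clusters the median r between the factors was 0.011 and 0.024, against 0.029 over all treated ES cells. It was 0.051 in the cluster led by Rgs14 and Krt15 and 0.138 in the remaining cluster of 82 cells. Without the cluster led by Rgs14 and Krt15 the log2 ratio of Zfp42 over all other ES cells was -0.85 and the median r of the treated library 0.020. A control cluster of 106 ES cells, with a median of 6277 UMIs and 6.07% on mitochondrial genes, was low in some factors too. Zfp42 stood there at 543 CPM (482 to 610), against 846 and 840 CPM in the large control clusters. Klf2, Esrrb and Tfcp2l1 were also lower, at 17.0, 15.1 and 86.8 CPM. The intervals of Klf4, Klf5, Tbx3 and Dppa3 met those of a large control cluster, and Dppa5a was higher, at 5996 CPM.

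**Figure D5:**
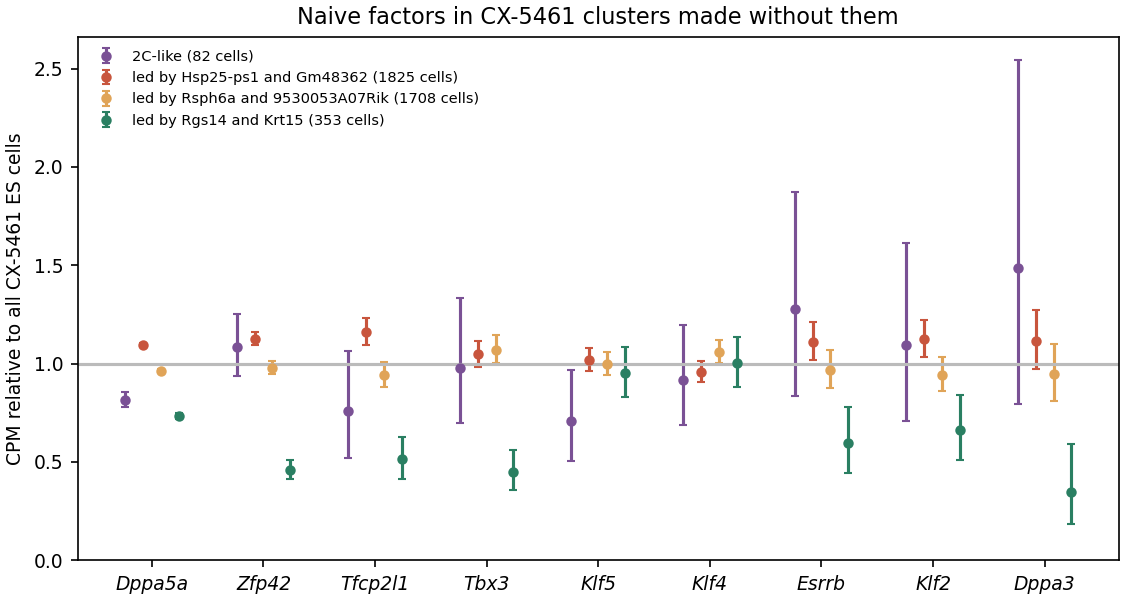
Level of each naive factor in 4 clusters of CX-5461-treated ES cells, relative to its level in all treated ES cells, with 95% exact Poisson intervals. In the cluster led by Rgs14 and Krt15 (green) 7 of the 9 factors lie below the large clusters, while Klf4 and Klf5 lie beside them.

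Depth and the p53 response moved with some of these values within each library. When the ES cells of each library were ordered by their share of p53 targets and cut into 4 groups of equal size, Zfp42 stood at 468 CPM in the treated group with the lowest share and at 383 CPM in that with the highest, whereas in the control it stood at 782 CPM (751 to 814) in the group with the lowest share and at 885 CPM (852 to 919) in that with the highest. Dppa5a stood at 6364 and 5032 CPM in the same treated groups and at 5038 CPM (4959 to 5118) and 4858 CPM (4781 to 4937) in the control groups. Tbx3 stood at 98.5 and 93.2 CPM in the treated and at 90.3 and 121 CPM in the control groups. Klf4 stood at 136 and 155 CPM in the treated and at 84.1 and 106 CPM in the control groups. Cells were also compared within 4 ranges of total UMIs, which begin at 5000, 10000, 15000 and 20000. The log2 ratio of Zfp42 was between -1.01 and -0.82 in all 4. That of Klf4 was 1.12 (0.80 to 1.45) in the shallowest range, with 260 control and 359 treated cells, and 0.43 (0.19 to 0.68) in the deepest. For Dppa5a the direction turned, from -0.10 (-0.15 to -0.057) in the shallowest to 0.45 (0.42 to 0.48) in the deepest range. Klf2 and Klf5 were higher in all 4 ranges, with intervals above 0. For Tfcp2l1 the log2 ratio was -0.44 (-0.75 to -0.13) and -0.43 (-0.58 to -0.28) in the shallower ranges but -0.092 (-0.27 to 0.089) and -0.0089 (-0.23 to 0.21) in the deeper ones. For Dppa3 it was between 0.17 and 0.32 in the first 3 ranges, with intervals that include 0, and 1.20 (0.57 to 1.86) in the deepest. For Esrrb and Tbx3 the intervals included 0 in all 4. The part of depth and of the p53 response in these differences was not tested.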

How the data were processed

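The authors prepared 10x Single Cell 3' V2 libraries and made digital expression tables with a published droplet pipeline. The submitters' processing notes name mm10 and Seurat 2.3.4. The deposited tables hold UMI counts per gene and barcode without normalization, and the filter stated in the methods (500 UMIs, 0.2 on mitochondrial genes) had not been applied to them. Barcodes are running numbers, so barcodes shared between the libraries could not be counted. The 9 genes, the gene lists and the comparisons were chosen with earlier results of these data known.

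Gene symbols came from GENCODE vM21. Each kept cell was thinned to 5000 UMIs without replacement with a fixed seed. Levels are summed thinned UMIs as CPM with exact Poisson intervals, ratios have exact conditional binomial intervals and shares have Clopper-Pearson intervals, all at 95%. Those of levels and ratios take UMIs as independent counts and are too narrow for genes with a Fano factor above 1. With 1 library per condition no p-value is given, and a call means a difference of at least 1.5-fold. The limit of 0.1% on fibroblast markers replaced a planned 0.5% after the tables were seen, since feeder cells lay below the latter, and 49 control and 9 treated cells lay within a factor of 2 of it. No doublets were removed. Clusters were made with scanpy 1.11.5 (2000 variable genes, 16 components, resolution 0.5) on all cells without the 9 factors, and 20 control and 6 treated ES cells fell in the fibroblast-like cluster. The scaling alternative by TMM used edgeR 4.0.16. For every factor the 3 genes with the highest lower r of the libraries were looked up, and of the gene lists those past 1.5-fold and the core factors are named. The procedures were tested on simulated data. The simulated cells used for ratios and intervals shared 1 profile per group, so that variation between cells was not part of that test.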

Additional observations from a re-analysis of the deposited data

How the results depend on the processing

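Under 17 alternatives to the main settings Zfp42 was lower in all 17, with log2 ratios from -1.25 to -0.85. Tfcp2l1 and Tbx3 were also lower in all 17, though the log2 ratio of Tbx3 came as near to 0 as -0.0061. Klf2, Klf4, Klf5 and Dppa3 were higher in all 17. The settings share most of their cells and 3 change the scaling alone, so that they are not independent of each other. Esrrb lay below 0 in 6 and Dppa5a in 2. The median log2 ratio of the 9 factors moved from 0.22 to -0.11 relative to the median gene, to -0.10 with the TMM factor (a shift of 0.32) and to 0.16 without ribosomal protein and mitochondrial genes. It was 0.25 when thinned to 10000 UMIs, 0.25, 0.28 and 0.26 with fibroblast limits of 0.25%, 0.5% and 1%, 0.24 with at most 0.05 on mitochondrial genes, 0.23 without cells with a UMI of the 2C markers, 0.20 without the 5% of cells with the most UMIs, 0.26 without the cluster led by Rgs14 and Krt15 and 0.26 as summed UMIs without thinning. The count of factors at least 1.5-fold higher was 0 relative to the median gene, 0 with the TMM factor and 2 with a second thinning seed. With that seed they were Klf4 and Dppa3, at log2 ratios of 0.607 and 0.605. When thinned to 10000 UMIs the factor called was Dppa3 (0.70) and not Klf4 (0.56). The same held for summed UMIs without thinning (0.69 and 0.55) and for the filter of the methods (0.68 and 0.57). The cause of these moves was not tested. The main limit of 0.1% in place of the planned 0.5%, the scaling without ribosomal protein genes and the setting without that cluster were chosen after seeing the data. The share of all genes at least 1.5-fold lower was 24.8% with no filter on low counts.

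No paired analysis was possible because the barcodes carry no sample of origin, and for the same reason no sample was left out in turn. Each condition is 1 library, so the spread between cultures is unknown. Free RNA and doublets were not removed. At 5000 UMIs per cell all factors but Zfp42 and Dppa5a had a mean under 1 UMI per cell, so a cell with 0 UMIs is not shown to lack the RNA.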

Other observations

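Cells with 2C markers, genes of the early embryo after its first cleavage, were described for the naive factors. At least 5 UMIs of 24 2C markers, counted before thinning and thus at unequal depth, were found in 13 control and 104 treated ES cells. In these treated cells Zfp42 stood at 456 CPM (400 to 518), beside 437 CPM (427 to 447) in treated ES cells without a UMI of these markers. Klf5 stood at 88.5 CPM (64.8 to 118) beside 134 CPM (129 to 140), Tfcp2l1 at 69.2 CPM (48.5 to 95.8) beside 108 CPM (103 to 113), and Dppa5a at 4885 CPM (4696 to 5078) beside 5819 CPM (5784 to 5855). Klf4 differed little, at 142 CPM (112 to 179) beside 143 CPM (137 to 149). In the 13 control cells Zfp42 stood at 1077 CPM (840 to 1361), beside 824 CPM (808 to 841) in control ES cells without a UMI of the markers. Dppa3 stood there at 154 CPM (73.8 to 283), from 10 UMIs, beside 14.98 CPM (12.9 to 17.3), and in the treated cells at 28.8 CPM (16.1 to 47.6) beside 20.2 CPM (18.2 to 22.4). Those 10 UMIs came from 30.8% of the 13 control cells, and their interval takes them as independent counts.

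The genes that varied most like each factor, by the lower r of the libraries among 3866 genes, had weak r except those of Dppa5a. Dppa5a had r of 0.337 in the control and 0.237 in the treated library with Hsp90aa1, a heat shock chaperone, 0.216 and 0.292 with Chchd10, and 0.204 and 0.304 with Gsta4. Its lowest r was with S100a6, a calcium-binding protein, at -0.376 and -0.247. Of the control ES cells, 9 held no UMI of Dppa5a and 20 fell in the fibroblast-like cluster. The part of such cells in these r values was not tested. Zfp42 had 0.144 and 0.132 with Malat1, 0.134 and 0.112 with Gm48309 and 0.101 and 0.141 with Mkrn1, and the same genes were the closest to Tbx3. For Dppa3 they were Ifitm1, at 0.084 and 0.134, Sod2 and Ckb. For Klf4 they were Fos, Malat1 and Slc2a3, for Klf5 mt-Co1, mt-Co2 and mt-Co3, for Klf2 Rpl34-ps1, Ddx17 and Trip12, for Esrrb Rpl41, Lasp1 and Nolc1, and for Tfcp2l1 Ftl1-ps1, Olfr1388 and Dynlt1b, all with r under 0.1 in both libraries.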
